A study of Mus musculus with 50 samples.

Results

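Ankrd1, Ankrd2, Csrp3, Xirp1, Xirp2, Flnc and Cryab encode proteins that sit on the stretched or loaded parts of the sarcomere, and these 7 genes of the 23880 in the count table are described here. They were picked by name for that role and by no rule on their values, though earlier results of these data were known. All 7 passed the filter on low counts (a level of 1 CPM or more, that is counts scaled to the library total, reached by 8 or more mice), as did 12586 genes of the table. The lowest count of any of them in any mouse was 59, for Ankrd1. CPM levels given below were also scaled by a normalization factor of each library.

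The study followed gene expression in the gastrocnemius, a calf muscle made mostly of fast fibers, while wild-type male C57BL/6JRj mice grew old. One muscle RNA library was made from each of 50 mice, with 8 animals in each of the age groups of 8, 18, 22 and 24 months and 9 animals in each of those of 26 and 28 months. According to the methods, the mice were fed an AIN-93M diet, which those of 22 to 28 months had eaten since middle age. Those of 8 and 18 months had started it younger, and only a minimum time on it is given for them. Age and diet history therefore cannot be told apart in comparisons with 8 months. Mice of 22 to 28 months started the diet at a like age, and time on it still rises with age among them. Animals with overt disease or tumors had been left out, so the oldest groups hold survivors without such signs.

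The totals per mouse ranged from 13607229 to 21267375 counts. Markers of fast IIB fibers summed to between 97970 and 117539 TPM (a level scaled by transcript length and library) at 8 months, whereas the 5 cardiac markers summed to at most 8.17 TPM at 28 months, and 2 of them, Nppb and Myl7, were listed at 0 TPM in every mouse of 8 and 28 months. Replicate 2 of 28 months had the highest levels of Ankrd2, Csrp3 and Flnc among the 9 mice of its age, and the results that depend on it are given with and without it. In whole muscle, fewer fibers of a type and less RNA per fiber cannot be told apart.

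The sarcomere is anchored at the Z-disc, where actin filaments and the elastic protein titin are fixed. Ankyrin repeat proteins bind titin in the I-band, muscle LIM protein (Csrp3) and filamin C (Flnc) link the Z-disc to the cytoskeleton, and the Xin proteins and the chaperone alpha-B crystallin (Cryab) gather where filaments are damaged or under load. Several of these genes are known to be induced by stretch, overload, denervation or eccentric exercise, and some are more abundant in slow than in fast fibers.

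The levels of the 7 genes covered a wide range. In TPM, Cryab was the highest at 1268 ± 353 (SD, n = 50 mice), followed by Xirp2 at 414 ± 98.4 and Flnc at 238 ± 115. Ankrd2 reached 210 ± 145, Csrp3 155 ± 114 and Xirp1 74.9 ± 40.1, and Ankrd1 was the lowest at 21.04 ± 12.3. The order Cryab above Xirp2 held in 50 of 50 mice, and so did Xirp1 above Ankrd1. Flnc and Ankrd2 were the least separated neighbors in TPM, with Flnc higher in 35 of 50 mice.

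Between 8 and 28 months, Ankrd1, Flnc and Ankrd2 rose, and Xirp1, Csrp3, Xirp2 and Cryab did not pass the test. The test was edgeR's quasi-likelihood test, with Benjamini-Hochberg adjusted p below 0.01 over all 12586 genes as the threshold. The 3 genes of 7 that rose stand against a background of 39.6% of all genes tested that passed in either direction and 21% that passed as higher. With 7 genes, a count of 3 is close to the share among all genes, so it is the single genes and their sizes that carry the description. All comparisons with 8 months share the same 8 control mice.

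**Figure D1:**
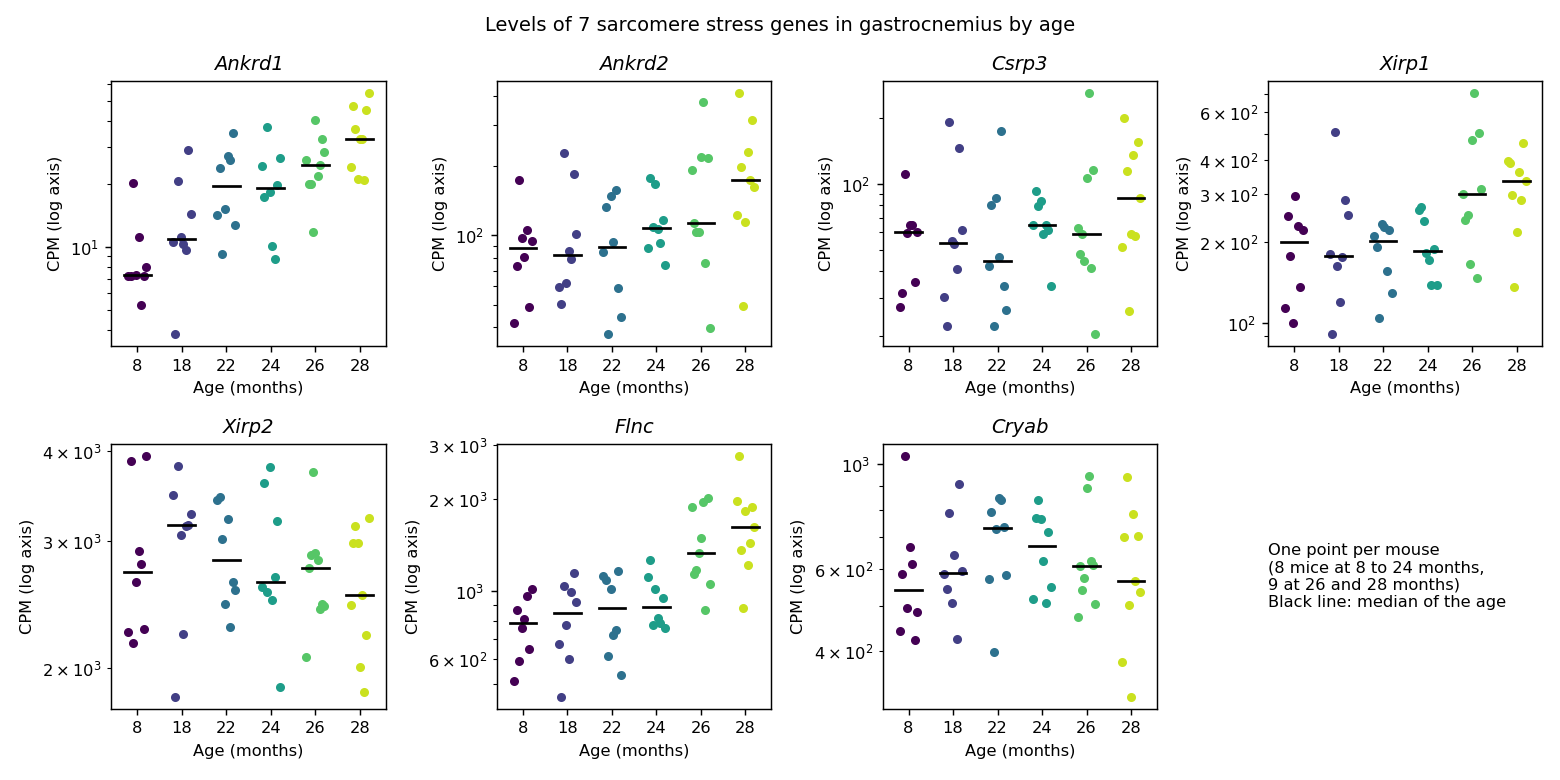
Level of each gene in CPM (vertical log axis, its own range per panel) against age in months, with 1 point per mouse and a black line at the median of each age. Ankrd1 is the only panel in which all 9 mice of 28 months lie above all 8 mice of 8 months, and in the Flnc panel 8 of 9 mice lie above them at both 26 and 28 months.

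Ankrd1 (ENSMUSG00000024803, chr19:36111961-36120099, minus strand, GRCm38) encodes the cardiac ankyrin repeat protein, a titin-binding protein that also enters the nucleus and is usually low in limb muscle. Its level at 8 months was between 5.27 and 20.3 CPM, with a median of 7.28 CPM. At 28 months it was between 20.8 and 54.4 CPM, with a median of 32.9 CPM. The lowest mouse of 28 months was thus just above the highest mouse of 8 months, replicate 3, whose level of 20.3 CPM stood well above the next at 11.1 CPM. Such a full separation, with 28 months as the higher age, was found for 2.46% of all genes tested.

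The intermediate ages filled the gap for Ankrd1. Medians were 10.8 CPM at 18 months, 19.5 CPM at 22 months, 19.0 CPM at 24 months and 24.7 CPM at 26 months, and all 8 mice of 22 months, all 8 of 24 months and all 9 of 26 months were above the 8-month median. Against 8 months, the log2 fold change of Ankrd1 was 1.92 ± 0.30 (SE) at 28 months, a 3.79-fold increase (adjusted p = 2.17e-06). It was 1.44 ± 0.30 at 26 months (adjusted p = 0.000419). At 24 months it was 1.14 ± 0.31 (adjusted p = 0.0292) and at 22 months 1.15 ± 0.31 (adjusted p = 0.0855), sizes close to each other that did not pass the threshold. Over the 6 ages together Ankrd1 changed (F test, adjusted p = 1.54e-05). Leaving out each of the 17 mice of 8 and 28 months in turn gave log2 fold changes from 1.82 to 2.20, past the threshold each time.

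Flnc (ENSMUSG00000068699, chr6:29433256-29461883, plus strand, GRCm38) encodes filamin C, the muscle filamin, which crosslinks actin at the Z-disc and the membrane and is a client of chaperone-assisted autophagy. It was between 508 and 1016 CPM at 8 months (median 786), and its range stayed alike at 18 months (453 to 1148, median 847), 22 months (535 to 1168, median 881) and 24 months (761.6 to 1269, median 886). At 26 months the range was 871 to 2020 CPM (median 1336) and at 28 months 880 to 2770 CPM (median 1623). At both of these ages 8 of 9 mice were above the highest mouse of 8 months, and the exception at 28 months was replicate 4 at 880.0 CPM.

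Flnc rose by a log2 fold change of 0.90 ± 0.19 at 26 months (adjusted p = 0.000541) and 1.11 ± 0.19 at 28 months, which is 2.16-fold (adjusted p = 9.61e-06). At 24 months the value was 0.28 ± 0.19 (adjusted p = 0.435). Against 22 months Flnc at 28 months was higher by 0.92 ± 0.19 (adjusted p = 0.000237), and it was the only one of the 7 genes to pass in that comparison, where 27.7% of all genes passed and 16.2% passed as higher. Without replicate 2 of 28 months, the highest mouse, the log2 fold changes were 0.98 against 8 months (adjusted p = 5.85e-05) and 0.79 against 22 months (adjusted p = 0.00142).

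In the comparison of 28 with 22 months, 3 further genes had values of similar size that missed the threshold. These were Ankrd2 at 1.06 ± 0.36 (adjusted p = 0.0157), Xirp1 at 0.80 ± 0.27 (adjusted p = 0.0175) and Ankrd1 at 0.78 ± 0.29 (adjusted p = 0.0266). When the fit held no other ages than these 2, Xirp1 did pass, with a log2 fold change of 0.79 (adjusted p = 0.00808).

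Ankrd2 (ENSMUSG00000025172, chr19:42036000-42045110, plus strand, GRCm38), also called Arpp, encodes the ankyrin repeat protein of skeletal muscle, which binds titin and is known to respond to stretch and to be richer in slow fibers. It lies on the same chromosome as Ankrd1. Its level was between 41.5 and 174 CPM at 8 months (median 87.6) and between 49.4 and 413 CPM at 28 months (median 174). The groups overlapped, with 4 of 9 mice of 28 months above the highest mouse of 8 months and 8 of 9 above the 8-month median.

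The log2 fold change of Ankrd2 was 1.14 ± 0.36 at 28 months, 2.20-fold (adjusted p = 0.00716), and 0.84 ± 0.36 at 26 months (adjusted p = 0.0629). Medians stayed between 82.0 and 113 CPM from 18 to 26 months. The call of Ankrd2 was the least firm of the 3: it passed in 9 of the 17 fits that each left out 1 mouse. Without replicate 2 of 28 months it was 0.93 (adjusted p = 0.0295), and it was also lost without replicate 6 or 8 of 28 months or replicate 1, 2, 4, 5 or 7 of 8 months.

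Ankrd23 (chr1:36530188-36536883, minus strand, GRCm38), the third gene of the muscle ankyrin repeat family, encodes the diabetes-related ankyrin repeat protein, and it was far more abundant than the other 2. Its mean level was 2107 ± 222 CPM at 8 months (n = 8) and 1796 ± 426 CPM at 28 months (n = 9). The log2 fold change was -0.23 ± 0.12 (adjusted p = 0.0870), so it did not pass, and its sign was opposite to those of Ankrd1 and Ankrd2.

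Csrp3 (ENSMUSG00000030470, chr7:48830398-48848033, minus strand, GRCm38) encodes muscle LIM protein, a Z-disc protein tied to mechanical sensing and typical of slow and cardiac muscle. It was between 27.2 and 111 CPM at 8 months (median 59.9) and between 26.1 and 202 CPM at 28 months (median 86.0). The 2 ages overlapped over nearly the whole range of the younger mice, and 4 of 9 mice of 28 months were above all mice of 8 months. The log2 fold change was 0.80 ± 0.42 (adjusted p = 0.106), the largest standard error of the 7 genes, and without replicate 2 of 28 months it was 0.59 (adjusted p = 0.249).

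Xirp1 (ENSMUSG00000079243, chr9:120013755-120023598, minus strand, GRCm38) encodes Xin, an actin-binding protein that partners with filamin C and marks damaged or remodeling fibers. Its level was between 100.4 and 294 CPM at 8 months (median 199), between 147 and 705 CPM at 26 months (median 300.4) and between 137 and 462 CPM at 28 months (median 333). At 26 months 5 of 9 mice, and at 28 months 6 of 9, were above the highest mouse of 8 months. No mouse of 22 or 24 months was, but 1 of 8 mice of 18 months was, replicate 3 at 509 CPM. That level was also above every mouse of 28 months.

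For Xirp1, the log2 fold change against 8 months was 0.06 ± 0.28 at 24 months (adjusted p = 0.924), 0.86 ± 0.28 at 26 months (adjusted p = 0.0143) and 0.75 ± 0.27 at 28 months (adjusted p = 0.0194). No single contrast with 8 months passed, but Xirp1 changed over the 6 ages together (F test, adjusted p = 0.00617). That call was lost without replicate 2 of 28 months (adjusted p = 0.0119), and without replicate 4, the lowest mouse of 28 months, the contrast with 8 months did pass at 0.85 (adjusted p = 0.00779). Over the 6 ages 35.4% of all genes tested passed, and of the 7 genes Ankrd1, Flnc and Xirp1 did. Ankrd2 did not in that test (adjusted p = 0.0242).

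Xirp2 (ENSMUSG00000027022, chr2:67446002-67526614, plus strand, GRCm38), the second Xin gene, is a target of the factor MEF2 and encodes a Z-disc and intercalated disc protein, also known as myomaxin. Its level was between 2165 and 3939 CPM at 8 months (median 2714) and between 1854 and 3231 CPM at 28 months (median 2528). The log2 fold change was -0.13 ± 0.14 (adjusted p = 0.435). No mouse of any later age was above the highest mouse of 8 months.

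Cryab (ENSMUSG00000032060, chr9:50751325-50756636, plus strand, GRCm38) encodes alpha-B crystallin, a small heat shock protein that protects desmin and titin. It was between 422 and 1043 CPM at 8 months (median 539) and between 320.1 and 941 CPM at 28 months (median 565), with the highest median, 731 CPM, at 22 months. The log2 fold change of 28 against 8 months was 0.02 ± 0.18 (adjusted p = 0.929), and its sign changed under several alternatives. Cryab overlaps its neighbor Hspb2 (chr9:50751078-50752354, minus strand) by 1030 bases in the GENCODE annotation. The libraries were stranded and were assigned with strand, and Hspb2, another small heat shock gene, fell between 8 and 28 months by 0.41 on the log2 scale (SE 0.14, adjusted p = 0.00962). That call held in only 4 of the 17 fits that each left out 1 mouse, and without replicate 2 of 28 months the adjusted p was 0.0281. It was also lost without the filter, with only the 2 ages in the fit and with the slow fiber covariate (adjusted p from 0.0143 to 0.0383).

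**Figure D2:**
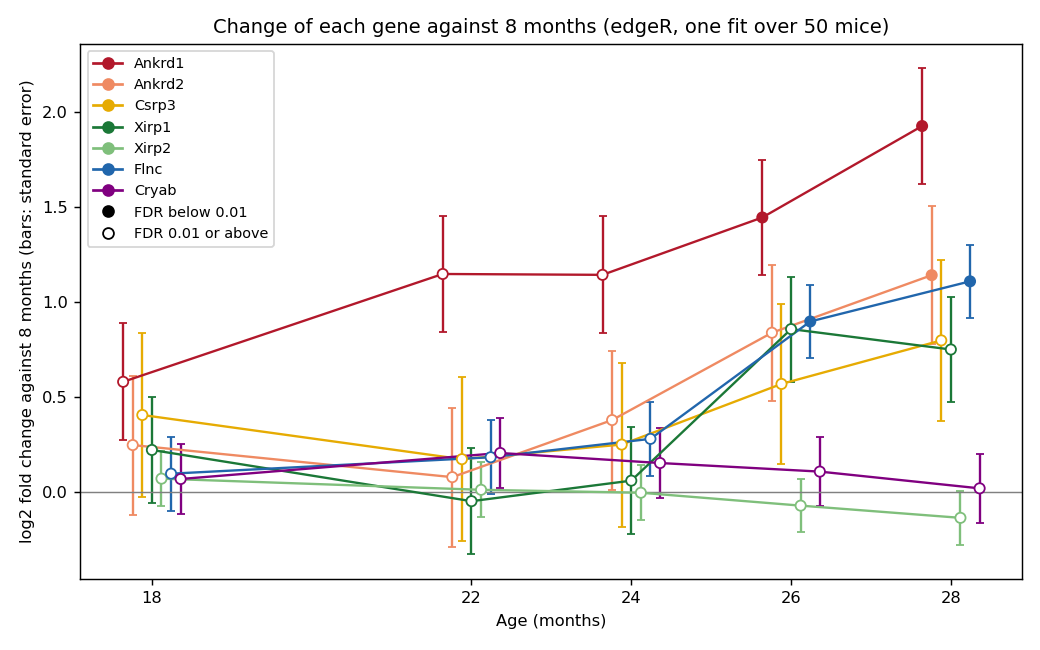
Log2 fold change against 8 months (vertical axis, with standard error bars) at 18, 22, 24, 26 and 28 months (horizontal axis) for each gene from 1 edgeR fit over 50 mice, with filled points for adjusted p below 0.01. Ankrd1 is at 1.15 already at 22 months and at 1.92 at 28 months, Flnc moves from 0.28 at 24 months to 0.90 at 26 months, and Xirp2 and Cryab stay between -0.13 and 0.21.

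At 26 months, 2 of the 7 genes (Ankrd1 and Flnc) passed against 8 months, beside 18.4% of all genes in either direction and 9.84% as higher. None of the 7 passed at the earlier ages in edgeR, DESeq2 or limma. The background was 0.612% at 24 months, 0.0397% at 22 months and 0.0715% at 18 months, so few genes of any kind passed there. At an unadjusted p below 0.05, edgeR gave 1 of the 7 genes at 24 months, 1 at 22 months, Ankrd1 both times, and 0 at 18 months, beside 2422, 1134 and 460 of all 12586 genes.

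No step between neighboring ages passed for any of the 7 genes in edgeR, DESeq2 or limma. In edgeR 0.00795% of all genes passed for 22 against 18 months, and 0% passed for 24 against 22, 0% for 26 against 24 and 0% for 28 against 26 months. At an unadjusted p below 0.05 the counts over all genes were 522, 478, 2202 and 1609 in that order, and DESeq2 called 2, 0, 7 and 0 genes and limma 1, 0, 0 and 1. Only the step from 24 to 26 months held any of the 7 genes at that unadjusted level. They were Flnc at 0.62 ± 0.19 (adjusted p = 0.0894) and Xirp1 at 0.80 ± 0.27 (adjusted p = 0.123).

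Among mice of the same age, most pairs of the genes varied together. Levels were taken as log2(CPM + 1) minus the mean of the age, and the 21 pairs were tested with 100000 permutations within ages, two-sided, of which 16 passed an adjusted p of 0.05 by Pearson's r. The points share their libraries, so depth and muscle composition are common to both axes. Ankrd2 and Csrp3 formed the tightest pair, with r = 0.940 and Spearman's rho = 0.931 (n = 50, permutation p = 1e-05 for each, the smallest that these permutations can give, adjusted p = 3e-05 and 5.25e-05). Within single ages r was between 0.810 and 0.964, and without the 2 mice farthest from the median it was 0.931.

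Cryab went with the same pair, at r = 0.692 with Csrp3 (rho = 0.691) and r = 0.685 with Ankrd2 (rho = 0.722), permutation p = 1e-05 for each and adjusted p at most 5.25e-05. Xirp1 went with that pair about as closely, at r = 0.675 with Ankrd2 and 0.663 with Csrp3, and so did Flnc with Ankrd2 at r = 0.656 (permutation p = 1e-05 and adjusted p = 3e-05 for each). Xirp1 and Flnc, which encode binding partners, gave r = 0.726 and rho = 0.712 (permutation p = 1e-05 for each, adjusted p = 3e-05 and 5.25e-05), with r between 0.639 and 0.839 within ages. Flnc and Cryab did not pass (r = 0.154, rho = 0.182, permutation p = 0.327 and 0.229, adjusted p = 0.344 and 0.253). Ankrd1 and Flnc passed by Pearson's r (r = 0.367, permutation p = 0.0126, adjusted p = 0.0177). By rho they did not (rho = 0.302, permutation p = 0.0444, adjusted p = 0.0583), and their r within single ages went from -0.37 to 0.87. Xirp2 had the loosest relations. Its r was between 0.08 and 0.37 with the other 6 genes, and only the pairs with Flnc (adjusted p = 0.0151) and Xirp1 (adjusted p = 0.0367) passed by Pearson's r, the latter not by rho (adjusted p = 0.0583). With log2(TPM + 1) in place of CPM, 20 of the 21 pairs passed, among them Flnc with Cryab (r = 0.308, adjusted p = 0.0456).

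**Figure D3:**
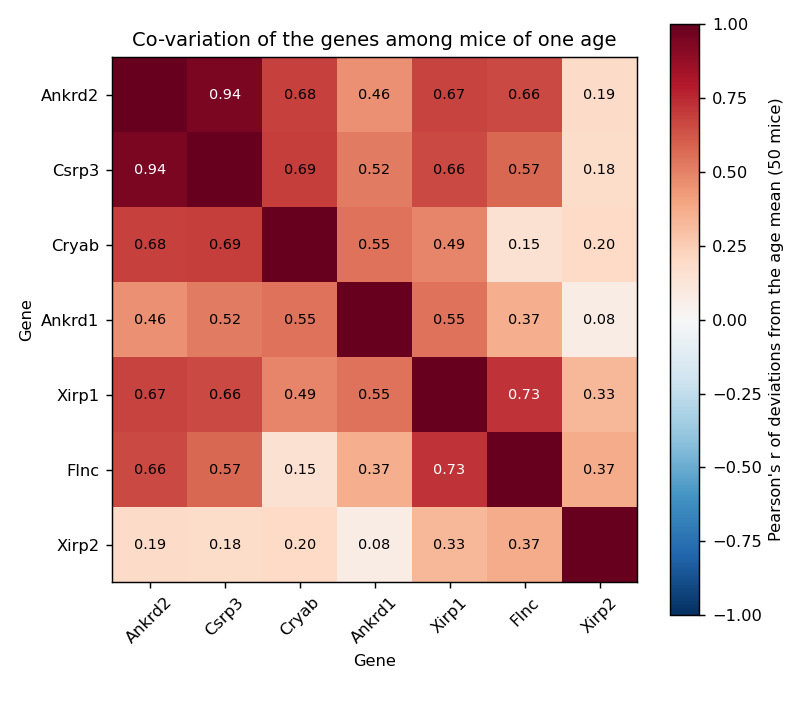
Pearson's r between the deviations of each pair of genes from the mean of the age over 50 mice, as a color from -1 (blue) to 1 (red) with the value printed in each cell. The highest cell is 0.94 between Ankrd2 and Csrp3, Xirp1 and Flnc reach 0.73, Cryab and Xirp1 each lie between 0.66 and 0.69 with Ankrd2 and Csrp3, and the Xirp2 row stays at or below 0.37.

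The stretches before the starts of Ankrd2 and Csrp3 are shown because these 2 genes kept the tightest pace with each other. They are the RefSeq upstream sequences in build GRCm38.p6, without any bases that GENCODE places inside the gene, printed in the direction of transcription. Capitals mark E-boxes (CANNTG, which reads alike on both strands), the motif of the MyoD family.
Ankrd2, chr19:42035777-42035999, plus strand: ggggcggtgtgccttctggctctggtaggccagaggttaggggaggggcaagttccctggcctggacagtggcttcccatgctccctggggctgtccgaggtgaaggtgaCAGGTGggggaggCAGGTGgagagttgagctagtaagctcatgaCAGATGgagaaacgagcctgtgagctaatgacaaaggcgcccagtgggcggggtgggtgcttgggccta
Csrp3, chr7:48848052-48848301, minus strand: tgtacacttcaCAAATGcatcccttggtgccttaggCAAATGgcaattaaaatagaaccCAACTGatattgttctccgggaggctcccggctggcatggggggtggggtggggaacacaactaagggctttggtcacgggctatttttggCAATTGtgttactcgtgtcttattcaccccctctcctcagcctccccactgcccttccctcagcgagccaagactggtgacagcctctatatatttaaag

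The Ankrd2 stretch holds 3 E-boxes and the Csrp3 stretch 4. Of the 32851 RefSeq promoters with 250 bases before the start, 66.2% hold at least 1 E-box, 12.2% at least 3 and 3.84% at least 4. The M-CAT motif (CATTCC on either strand), bound by TEAD factors, is in neither stretch and in 12.6% of all promoters. The 250 bases before the RefSeq start of Ankrd1 hold it 2 times, at positions -210 and -123 from the start, and 1 of the 2 Flnc windows holds it at -104. That Ankrd1 window lies inside the gene as GENCODE draws it, within the first exon of a longer transcript, and that Flnc window overlaps the transcript from the other RefSeq start, so neither is wholly upstream sequence. The Xirp2 window holds a MEF2 box at -74, a motif present in 1.69% of promoters. A CArG box, present in 1.47% of promoters, was in none of the windows of these 5 genes. The reference table listed 5 of the 7 genes, and Xirp1 and Cryab were not matched. Such matches describe letters and say nothing of which factor was bound.

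Slow fiber markers differed widely between mice and moved with several of the 7 genes. The 9 markers (Myh7, Tnnt1, Tnni1, Tnnc1, Myl2, Myl3, Tpm3, Atp2a2 and Casq2) summed to between 541 and 3207 TPM at 8 months and between 1073 and 4894 TPM at 28 months. Only Casq2 of them passed the test of 28 against 8 months, as higher, with a median log2 fold change of 0.56 over the 9. At an unadjusted p below 0.05 edgeR gave 3 of the 9. Myh7 had the largest log2 fold change of the list, 1.25 ± 0.45, and did not pass (adjusted p = 0.0174). A slow fiber score was taken for each mouse as the mean over the markers of log2(TPM + 1), each relative to its mean over the 50 mice. Its mean was -0.33 ± 0.84 (SD) in the 8 mice of 8 months, 0.45 ± 0.64 in the 8 of 24 months and 0.45 ± 0.65 in the 9 of 28 months.

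Among mice of one age, Ankrd2 followed this score most closely, at r = 0.839 and rho = 0.869 (n = 50, permutation p = 1e-05 for each, adjusted p = 4.67e-05), and r was between 0.793 and 0.936 within every age. Csrp3 was next at r = 0.748 (rho = 0.765) and Cryab at r = 0.674 (rho = 0.684), with the same permutation p. Flnc (r = 0.522, rho = 0.507, adjusted p = 0.00056 and 0.00084) and Xirp1 (r = 0.518, rho = 0.529, adjusted p = 0.000455 and 0.0007) were looser. Ankrd1 was at r = 0.371 and rho = 0.346 (permutation p = 0.0118 and 0.0209, adjusted p = 0.0235 and 0.0366), and its r within single ages went from -0.25 to 0.80. Xirp2 did not pass (r = 0.278, rho = 0.293, adjusted p = 0.0859 and 0.0792), but on the TPM scale it did (r = 0.315, adjusted p = 0.0470).

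**Figure D4:**
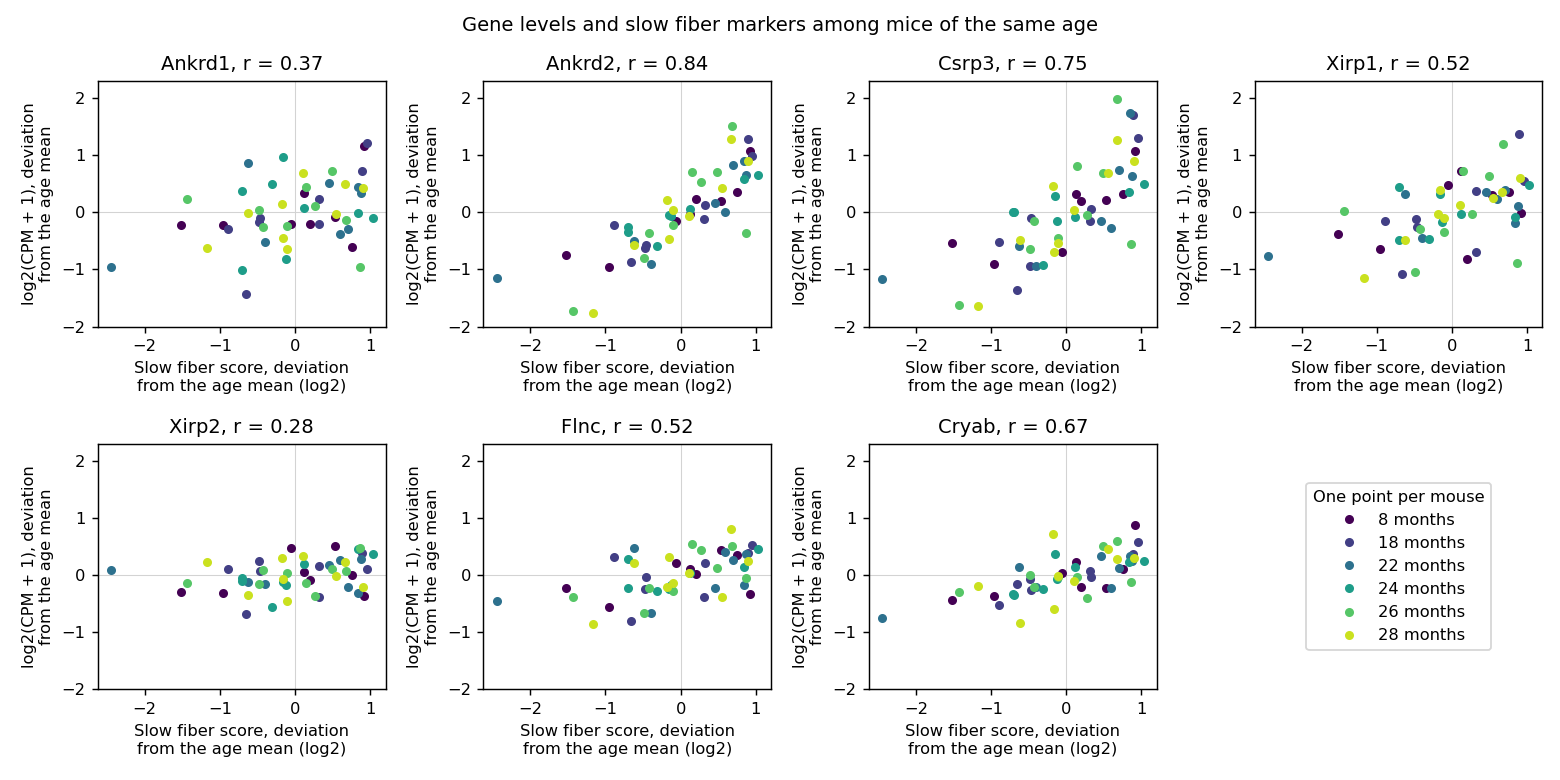
Deviation of log2(CPM + 1) from the mean of the age (vertical axis) against the deviation of the slow fiber score (horizontal axis, log2), with 1 point per mouse colored by age. The points of Ankrd2 (r = 0.84) and Csrp3 (r = 0.75) lie along a rising band and those of Xirp2 (r = 0.28) lie between -0.68 and 0.50 with a weaker tilt.

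With the slow fiber score of each mouse as a covariate in the same edgeR fit, the 28 against 8 months values of these genes changed unequally. Ankrd1 was at 1.69 ± 0.29 (adjusted p = 1.41e-05) and Flnc at 0.89 ± 0.17 (adjusted p = 6.33e-05), both past the threshold. Ankrd2 went from 1.14 to 0.45 ± 0.21 (adjusted p = 0.0740) and no longer passed. Csrp3 went from 0.80 to 0.03 ± 0.30 (adjusted p = 0.936), Xirp1 from 0.75 to 0.41 ± 0.25 (adjusted p = 0.165) and Cryab from 0.02 to -0.23 ± 0.14 (adjusted p = 0.181). The score is itself a readout of the same libraries, and whether it reflects fiber make-up or how each muscle was dissected was not tested.

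A denervation response list was also set beside the genes, since loss of nerve contact is known to change many muscle genes. Of its 9 tested genes, which include the acetylcholine receptor subunit Chrna1 and the kinase Musk, 8 were higher at 28 than at 8 months and 0 lower, and the summed level went from between 71.4 and 128 TPM to between 145 and 712 TPM. Within ages, Flnc followed the score made from this list (r = 0.495, rho = 0.465, permutation p = 0.00054 and 0.00106, adjusted p = 0.00126 and 0.00247). Xirp1 did so more weakly (r = 0.343, rho = 0.346, adjusted p = 0.0299 and 0.0366), and for Ankrd1 the test did not pass (r = 0.249, rho = 0.232, adjusted p = 0.126 and 0.165). Within single ages r went from 0.01 to 0.87 for Flnc and from 0.03 to 0.66 for Xirp1. The test did not pass for Ankrd2 (r = 0.114), Csrp3 (r = 0.114), Xirp2 (r = 0.099) or Cryab (r = -0.236) either. The 14 relations with both scores were adjusted together.

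The spread between mice did not differ between 28 and 8 months by the test used for any of the 7 genes. The mean absolute deviation of log2(CPM + 1) from the median of the age was largest for Csrp3, 0.48 at 8 months and 0.74 at 28 months (exact permutation test, two-sided, p = 0.284, adjusted p = 0.795). For Ankrd1 it was 0.31 and 0.39 (exact permutation test, p = 0.696, adjusted p = 0.795).

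Related genes were read from 8 lists, of which 87 genes were tested between 28 and 8 months. In all, 24 were higher and 13 lower, so 42.5% passed beside 39.6% of all genes tested. The median log2 fold change was 0.07 over the 87 genes and 0.01 over all genes tested.

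Among titin and M-band partners, 8 of 18 genes rose, 2 fell and 8 did not pass, with a median log2 fold change of 0.35. Trim63, the ubiquitin ligase MuRF1 of the M-band, rose by 2.10 ± 0.39 (adjusted p = 2.21e-05), and the giant elastic protein titin (Ttn) by 1.27 ± 0.20 (adjusted p = 2.68e-06). Among other Z-disc genes, 7 of 21 rose and 2 fell. Neb (nebulin, the ruler of the thin filament) rose by 1.18 ± 0.28 (adjusted p = 0.000568) and Nrap, a protein of nascent myofibrils, by 0.94 ± 0.13 (adjusted p = 4.29e-07). Of the 9 tested genes of the filamin family and its partners, 0 passed in edgeR, 4 had an unadjusted p below 0.05, and DESeq2 and limma each called 1. That gene was Sgcd, a sarcoglycan of the muscle membrane, at 0.50 ± 0.17 in edgeR (adjusted p = 0.0123) and 0.51 in DESeq2 (adjusted p = 0.00813).

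Small heat shock proteins went both ways. Hspb7, which binds filamin C, rose by 1.24 ± 0.27 (adjusted p = 0.000206), while Hspb8, a partner of Bag3, fell by 0.54 on the log2 scale (SE 0.12, adjusted p = 0.000352). With Hspb2 that made 1 higher and 2 lower of 5. In the Bag3 pathway, which handles damaged filamin, Bag3 itself was at 0.15 ± 0.12 (adjusted p = 0.312), the co-chaperone Dnajb6 rose by 0.72 ± 0.10 (adjusted p = 1.17e-07) and the ligase Stub1 fell by 0.44 on the log2 scale (SE 0.09, adjusted p = 0.000105), with 4 of 6 genes not passing. Of 6 intermediate filament genes 2 rose and 1 fell. Desmin (Des), the client of Cryab, rose by 0.34 ± 0.08 (adjusted p = 0.000231) and vimentin (Vim) fell by 0.47 on the log2 scale (SE 0.12, adjusted p = 0.000944), a call lost with only the 2 ages in the fit (adjusted p = 0.0111).

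Ankrd1 is a known target of the load-sensitive factors YAP and TEAD. Of the 13 tested genes of that list 3 rose and 1 fell, with a median log2 fold change of -0.02. The targets Cyr61 (0.70 ± 0.18, adjusted p = 0.00107) and Amotl2 (0.60 ± 0.17, adjusted p = 0.00353) rose, and so did Yap1 itself (0.37 ± 0.08, adjusted p = 0.000275), while the target Axl, a receptor kinase, fell by 0.44 on the log2 scale (SE 0.13, adjusted p = 0.00413). The call of Amotl2 was lost without replicate 2, 7 or 9 of 28 months (adjusted p up to 0.0134), and also with the replicate number as a block (0.55, adjusted p = 0.0108), with no other ages in the fit (adjusted p = 0.0121) and with the slow fiber score as a covariate (adjusted p = 0.0159). In the list of SRF and its coactivators, 2 of 9 rose and 4 fell. The coactivator Mkl1 fell by 0.86 on the log2 scale (SE 0.24, adjusted p = 0.00238) and Abra, which activates this pathway, rose by 0.58 ± 0.18 (adjusted p = 0.00723). The other coactivator, Mkl2, went the opposite way to Mkl1 and rose by 0.56 ± 0.14 (adjusted p = 0.000748). Srf itself was lower, at -0.42 ± 0.10 (adjusted p = 0.000395). Abra passed in 10 and Mkl1 in 16 of the 17 fits that each left out 1 mouse, Mkl1 being lost without replicate 5 of 8 months (adjusted p = 0.0116) and Abra without replicate 1, 2 or 8 of 28 months or replicate 1, 4, 7 or 8 of 8 months. With only the 2 ages in the fit or with the slow fiber covariate both calls were lost (adjusted p = 0.0181 and 0.0378 for Abra, 0.0224 and 0.0126 for Mkl1), and that of Abra also without the filter (0.0103) and with upper-quartile factors (0.0118). The genes Actc1, Acta2 and Tagln of this list are also markers of developing fibers or smooth muscle.

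**Figure D5:**
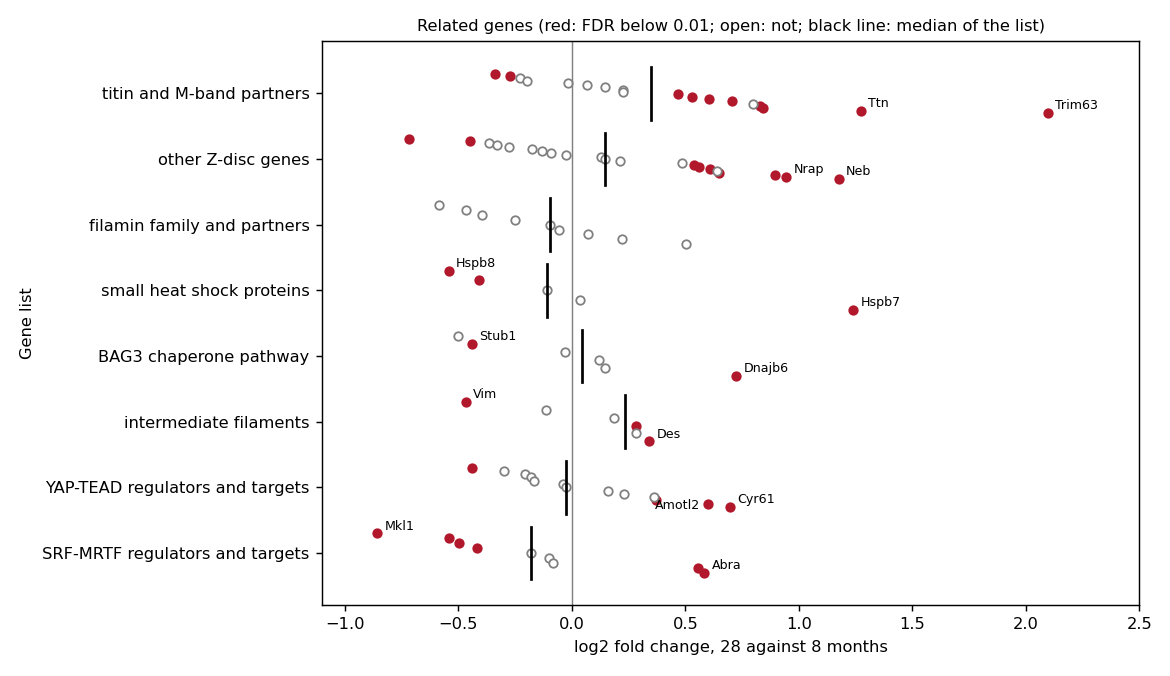
Log2 fold change of 28 against 8 months (horizontal axis) for each tested gene of the 8 lists of related genes (rows), in red where the adjusted p was below 0.01 and open otherwise, with a black line at the median of the list. The medians run from -0.18 for SRF and its coactivators to 0.35 for titin and M-band partners, and Trim63 at 2.10 lies farthest to the right.

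Other cell types that whole muscle can hold were read from marker lists in the same comparison. Of the tested markers, 0 rose and 3 fell of 8 for tendon and its junction with muscle, 0 and 4 of 6 for smooth muscle, 0 and 3 of 5 for fibroblasts, 0 and 3 of 4 for adipocytes, 0 and 1 of 5 for endothelium and 0 and 1 of 5 for Schwann cells. For macrophages 3 rose and 0 fell of 5, for erythroid cells 1 and 0 of 4, for developing fibers 0 and 0 of 3 in edgeR (2 with an unadjusted p below 0.05, 0 called by DESeq2 and 1 by limma), for fast IIB fibers 1 and 1 of 6, for immediate early genes 1 and 3 of 9, and of the cardiac list the 1 tested gene, Myh6, did not pass (adjusted p = 0.0284). The tendon markers summed to between 148 and 351 TPM at 8 months and between 91.2 and 263 TPM at 28 months. Their part in the values of the 7 genes was not tested.

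The genes most like each of the 7 over all 50 mice, by Pearson's r of log2(CPM + 1) and given as a description, differed from gene to gene. For Flnc they were Insr (r = 0.918), Nrap (r = 0.912) and Ank3 (r = 0.900), values that were between 0.774 and 0.845 with the mean of each age taken out. For Ankrd2 they were Csrp3 (r = 0.926), Hspb7 (r = 0.913) and Myoz2 (r = 0.863). Csrp3 had Ankrd2, Hspb7 (r = 0.809) and Pdlim1 (r = 0.794), and Cryab had Fhl1 (r = 0.834), Smtnl1 (r = 0.830) and Hspb6 (r = 0.828). Xirp1 had 6430548M08Rik (r = 0.820), Tiam2 (r = 0.799) and Flnc (r = 0.794). Ankrd1 had Myl12a (r = 0.799), Gbe1 (r = 0.750) and Pde8a (r = 0.743), values that were between 0.445 and 0.599 once the mean of each age was taken out. Xirp2 had Wnk1 (r = 0.898), Kif16b (r = 0.850) and Mpdz (r = 0.841), which stayed between 0.852 and 0.904 after that step.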

How the data were processed

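Per the labels and methods, stranded libraries were trimmed with Cutadapt 1.9.1, reads under 30 nucleotides were dropped, and kallisto 0.43.1 assigned reads to protein-coding Ensembl transcripts (GRCm38), a read shared by several transcripts being split between them. The deposited counts are the authors' sums per gene in whole numbers, and the deposited TPM values are the authors' length-scaled levels. CPM for the filter was computed from the library totals. The CPM levels given were counts over the totals of the genes kept, scaled by TMM factors. Genes at 1 CPM or more in 8 or more mice entered 1 edgeR 4.0.16 quasi-likelihood fit over 50 mice with TMM factors, and ages were contrasted at an adjusted p of 0.01. The fit was tested on simulated data of 12526 genes. DESeq2 1.42.0 and limma 3.58.1, on log2(TPM + 1), were among the alternatives. The 7 genes and all lists were chosen with earlier results of these data known. Further genes named were Ankrd23, Hspb2, Bag3, the 2 with the largest passing change per list of related genes (mean of at least 5 CPM) and the 3 most alike per gene. Casq2, Myh6, Myh7, Yap1, Axl, Sgcd, Srf, Mkl2, Nppb and Myl7 were added after their values were seen. Libraries of one age differed beyond counting noise in all 184 pairs.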

Additional observations from a re-analysis of the deposited data

Results flagged for a closer look

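Of 42 groups (7 genes at 6 ages), 7 held a mouse set apart by Dixon's test on CPM at the 95% level. All 7 flags were for the highest mouse of the group. Chance gives about 1 in 20 only for normal values in independent groups. CPM was not put on the log scale here and several of these genes vary together, so that rate need not hold. Replicate 3 of 8 months was flagged for 3 genes, Ankrd1 at 20.3 CPM (next mouse 11.1), Csrp3 at 111 CPM (next 64.6) and Cryab at 1043 CPM (next 667), and its slow fiber score was 0.59, the highest of its age. Csrp3 was also set apart in replicate 6 of 22 months at 174 CPM (next 86.5) and in replicate 6 of 26 months at 261 CPM (next 116), with slow fiber scores of 0.53 and 0.87. Xirp1 was at 509 CPM in replicate 3 of 18 months (next 284), and Xirp2 at 3745 CPM in replicate 4 of 26 months (next 2892).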

How the results depend on the processing

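For 28 against 8 months, the calls of Ankrd1 and Flnc held under every alternative run. Ankrd2 passed with DESeq2, upper-quartile factors, no filter and the replicate block (log2 fold change 1.27, adjusted p = 0.00472), but not with limma (1.11, adjusted p = 0.0133), only the 2 ages compared (1.14, adjusted p = 0.0105) or the slow fiber score as a covariate (0.45). Leaving out 1 mouse gave 0.93 to 1.35 for Ankrd2, 0.66 to 0.87 for Xirp1 and -0.0832 to 0.19 for Cryab. Cryab, near 0 throughout, was at -0.23 with the covariate and -0.0215 with upper-quartile factors. With only 22 and 28 months in the fit, 2 of the 7 genes passed in place of 1. Over the 6 ages Xirp1 was also lost with limma, upper-quartile factors, the replicate block and the covariate (adjusted p from 0.0117 to 0.0305).

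Values that changed sign had not passed in either fit. With the slow fiber covariate these were, for 24 against 22 months, Ankrd2 (-0.25), Csrp3 (-0.38), Flnc (-0.11) and Xirp1 (-0.18), for 24 against 8 months Ankrd2 (-0.20), Csrp3 (-0.33), Xirp1 (-0.23) and Cryab (-0.0881), for 26 against 24 and 26 against 8 months Cryab (0.0431 and -0.0450), for 28 against 22 months Csrp3 (-0.0218) and for 28 against 8 months Bag3 (-6.29e-05). With limma they were Csrp3 for 26 against 24 months (-0.0126) and Xirp1 for 22 against 8 (0.0157) and 28 against 26 months (0.0483), and with the replicate block Xirp1 for 22 against 8 months (0.0382). Without the filter Ankrd1 for 24 against 22 months was at 0.000154. Xirp2 for 24 against 8 months was at 0.00441 with DESeq2, 0.0224 with limma, 0.00136 without the filter, 0.00447 with only the 2 ages, 0.000165 with upper-quartile factors and 0.00375 without replicate 2 of 28 months. The cause was not tested.

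Of 121 pairs of same-numbered mice of different ages, 52 had an r over 0.1 (median 0.06), against 245 of 920 other-numbered pairs (median -0.00679), and 12 of 50 mice correlated best with their own number. Since not every same-numbered pair was over 0.1, the numbers were not taken as pairs. That rule cannot show that same-numbered mice share nothing, and what they may share was not tested. The replicate block gave 4954 genes for 28 against 8 months in place of 4988. In that comparison 2639 were higher and 2349 lower, against 2249 and 2760 with upper-quartile factors, which moved the median of all genes from 0.01 to -0.05, and 2802 and 1758 with limma. In simulated data of this comparison, 61% of 100 genes changed 1.5-fold and 89% of 100 changed 2-fold were recovered. Far fewer genes changed there than the 4988 that passed in the data, which shifts the adjusted threshold. These shares therefore do not carry over directly. Changes below 1.5-fold may still be missed in the data, at a rate that was not tested.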
